A study of Mus musculus with 6 samples.

Results

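Forkhead transcription factors, the Fox proteins, were followed in the mouse embryonic intestine with and without Klf5. Members were all genes with a symbol from Foxa1 to Foxs1 that had an array row of their own, taking for each gene the row with the highest mean signal, which gave 43 of 19938 genes measured. The Klf5-deleted group (genotype Klf5D/D in the labels) and the control group (Klf5wt/wtShhEGFP/Cre+, wild-type for Klf5 and carrying the ShhEGFP/Cre allele) each held 3 arrays at E14.5, before villi form. Each array was hybridised with RNA from a pool of 2 intestine segments taken about 1.5 cm anterior to the cecum, on a mixed, partly C57Bl/6 strain. Shh is transcribed in the gut epithelium, so a Cre from the Shh locus acts in epithelial cells and their descendants, and the controls carry this altered Shh allele as well. The sources used here do not say whether the Klf5D/D embryos carried the same allele.

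Forkhead proteins share a winged-helix domain that contacts DNA, and different branches of the family serve different tissue layers. The Foxa proteins are pioneer factors of the endoderm, which open chromatin at gut, liver and pancreas genes. Foxf1, Foxf2 and Foxl1 act in the gut mesenchyme, where they lie downstream of Hedgehog ligands sent by the epithelium, and they influence smooth muscle growth, BMP and Wnt signals. Other branches serve metabolism and stress (Foxo), cell division (Foxm1), muscle and nerve (Foxp), neural crest (Foxd3), vessels (Foxc) and motile cilia (Foxj1).

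On the log2 scale Klf5 had signals of 10.24, 10.49 and 10.34 with the gene deleted, against 11.55, 11.74 and 11.77 in control pools (log2 fold change −1.33, SE 0.08, limma adjusted p = 9.62e-05). The epithelial gene Epcam lay at 11.07 to 11.33 in the Klf5-deleted pools and 11.72 to 11.87 in the controls. The smooth muscle actin gene Actg2 lay at 13.14 to 13.24 and 13.20 to 13.24, and both genes were above the median gene (8.65) on every array. So was the intestinal gene Cdx2, at 10.73 to 11.03 and 11.50 to 11.57. Cdx1, also intestinal, was not above it in the Klf5-deleted pools (8.35 to 8.65) and was in the controls (9.43 to 9.54). The pools also differed in sex. Xist, which female cells use to shut down an X chromosome, read 5.89 to 6.47 in the Klf5-deleted pools and 11.93 to 12.61 in the controls, and the Y-linked gene Uty read 9.84 to 9.95 and 4.93 to 8.79, in the same order of groups. The male share of a pool was scaled from Y-linked genes, taking the lowest pool as 0% and the mean of the Klf5-deleted pools as all male. On this scale it was 95.02% to 103% in the Klf5-deleted pools and 0%, 47.1% and 40.8% in the controls. By Xist and the Y-linked genes, sex moved with genotype. In a limma fit with this share as covariate, whose SE was 2.63 times as large at the median, 0 forkhead genes passed at an adjusted p of 0.05. In that fit 0.416% of all genes passed. An unadjusted limma p under 0.05 was found there for 5 forkhead genes, a cut not counted over all genes.

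Across the family, 6 of 43 genes rose in the Klf5-deleted intestine and 1 fell at a Benjamini-Hochberg adjusted p of 0.05 in limma, adjusted over all 19938 genes. The genes that rose were Foxd3, Foxp2, Foxf1, Foxo4, Foxf2 and Foxn3, and the one that fell was Foxa3. The share of members called, 16.3%, stood beside 17.5% of all genes. By direction, 14.0% of the members rose beside 8.95% of all genes, and 2.33% fell beside 8.58%. The median log2 fold change was 0.02 over the members and 0.02 over all genes, and apart from Foxa3 the members lay between −0.20 and 0.44. The groups of arrays did not overlap for 11 members that were higher and 4 that were lower in the Klf5-deleted pools, together 34.9% of the family, beside 36.0% of all genes (20.1% higher and 15.9% lower). The exact two-sided permutation test over arrays gave p = 0.1 for each of these 15, the smallest value that 3 arrays against 3 allow. The number of members that rose was 3 without control replicate 1 and 3 without control replicate 2, and the number that fell was 2 without Klf5-deleted replicate 2. With arrays centred on their medians, 4 rose and 2 fell. With the male share as covariate, none of the 7 called genes passed, and the log2 fold changes were −1.01 for Foxa3 (adjusted p = 0.345), 0.40 for Foxd3 (adjusted p = 0.215), 0.37 for Foxp2 (adjusted p = 0.359) and 0.33 for Foxf1 (adjusted p = 0.308), the adjusted p being limma's. For the others they were 0.23 for Foxf2 (adjusted p = 0.510), 0.15 for Foxo4 (adjusted p = 0.694) and 0.06 for Foxn3 (adjusted p = 0.879), against 0.21, 0.26 and 0.23 in the fit without the covariate.

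**Figure D1:**
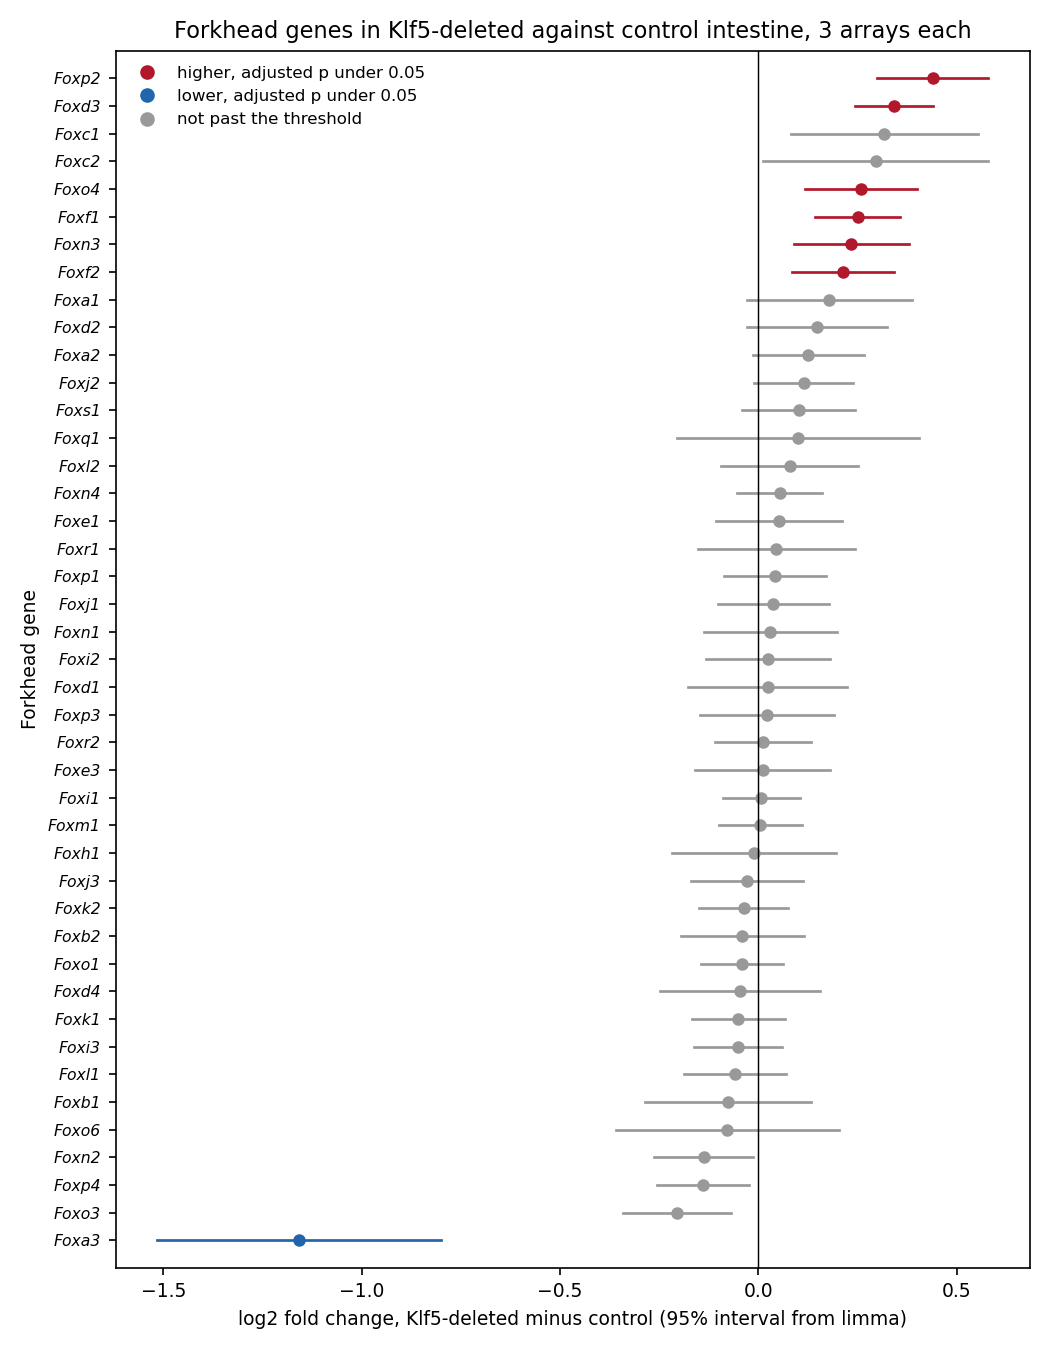
Log2 fold change of each of the 43 forkhead genes (points; Klf5-deleted minus control) with limma's 95% interval (lines), ordered from highest to lowest. The 6 genes that rose lie between 0.21 and 0.44, Foxa3 lies apart at −1.16, and the 36 genes in grey did not pass the threshold.

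Of the 3 endodermal Foxa genes, Foxa3 fell, and Foxa1 and Foxa2 did not pass the test. Foxa3, which has a part in glucose control in the liver, read 8.08, 8.72 and 8.48 in the Klf5-deleted pools and 9.65, 9.67 and 9.43 in the control pools. Every Klf5-deleted pool lay below every control, and replicate 1 was the lowest of the 3. Its log2 fold change was −1.16 (SE 0.15, limma adjusted p = 0.00256), which is 44.8% of the control level. In a bulk sample, fewer cells of a type and less RNA per cell cannot be told apart. Foxa1, which with Foxa2 is needed for secretory cells of the mouse gut, read 11.20, 11.56 and 11.47 in the Klf5-deleted pools and 11.22, 11.23 and 11.25 in the control pools. Pool 1 of the Klf5-deleted group sat below all controls and pools 2 and 3 above them, so the groups overlapped. The log2 fold change of Foxa1 was 0.18 (95% interval −0.03 to 0.39, adjusted p = 0.229), and it passed without Klf5-deleted replicate 1 (0.28, adjusted p = 0.0159), whereas without Klf5-deleted replicate 2 it was 0.10 (adjusted p = 0.509). Foxa2, the earliest endodermal member, read 8.29, 8.15 and 8.09 in the Klf5-deleted pools and 8.02, 8.04 and 8.08 in the control pools. All 3 Klf5-deleted values were above the controls, by little, and the log2 fold change of 0.13 (95% interval −0.01 to 0.27) did not pass (adjusted p = 0.208), and it was 0.07 without Klf5-deleted replicate 1. The interval of Foxa3 (−1.52 to −0.80) lay wholly below those of Foxa1 and Foxa2, and the difference between the genes was not itself tested.

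The promoter windows of Foxa3 and Foxa1 are set side by side because these paralogs read so differently in the same arrays. RefSeq windows (GRCm38.p6) run from 250 bases before to 50 after a gene's start and were at hand for 28 of the 43 members. The Foxa3 window is chr7:19023490-19023789, minus strand, and the Foxa1 window is chr12:57546062-57546361, minus strand. Capitals mark matches, on either strand, to 3 motifs searched by letter. They are a CACCC box (CCACACCC), a GC box (GGGCGGGG) and a forkhead site (TGTTTAC). Krüppel-like factors can bind boxes of both the CACCC and the GC kind. The 3 motifs do not overlap one another in these windows.
Foxa3: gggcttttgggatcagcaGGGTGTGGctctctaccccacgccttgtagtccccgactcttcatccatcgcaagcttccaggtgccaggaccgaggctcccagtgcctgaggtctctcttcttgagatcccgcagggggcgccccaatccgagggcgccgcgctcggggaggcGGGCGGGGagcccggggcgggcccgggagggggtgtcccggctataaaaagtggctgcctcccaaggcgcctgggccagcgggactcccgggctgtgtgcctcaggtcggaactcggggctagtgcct
Foxa1: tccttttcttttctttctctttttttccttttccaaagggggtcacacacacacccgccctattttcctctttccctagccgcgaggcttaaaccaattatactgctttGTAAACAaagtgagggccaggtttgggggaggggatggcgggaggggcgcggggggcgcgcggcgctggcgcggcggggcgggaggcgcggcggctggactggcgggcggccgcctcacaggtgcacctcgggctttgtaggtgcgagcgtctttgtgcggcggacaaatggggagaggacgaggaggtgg
In the Foxa3 window the CACCC box was found on the reverse strand, 232 bases before the start, and the GC box 78 bases before it. The Foxa1 window held no exact match to either, though it has stretches that differ from each by 1 letter. Its single exact match was a forkhead site on the reverse strand, 141 bases before the start. Of all 32851 windows, 3.56% held the CACCC box, 17.6% the GC box and 3.65% the forkhead site. Among the members with a window, Foxa3 was the 1 gene with the CACCC box, Foxa1 the 1 gene with the forkhead site, and 11 had the GC box. A match of letters is a description of the window and not evidence of binding.

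Markers of the epithelium, the layer of the Foxa genes, fell almost throughout in the Klf5-deleted pools. Of 20 epithelial markers, 19 fell and 0 rose, with a median log2 fold change of −0.89. For this list and those below, the shares of all genes were 8.95% higher and 8.58% lower, with a median of 0.02. Krt19, a keratin of simple epithelia, fell by 1.52 (SE 0.08), Cdh1, the epithelial cadherin, by 0.94 (SE 0.10) and Epcam, an epithelial adhesion molecule, by 0.61 (SE 0.07). Taking for each gene the difference from its control mean, the mean over the 20 markers was −1.01, −0.82 and −0.80 in Klf5-deleted pools 1 to 3 and −0.03 to 0.03 in the controls. The same difference was −1.50, −0.87 and −1.10 for Foxa3, −0.03, 0.33 and 0.24 for Foxa1 and 0.24, 0.10 and 0.04 for Foxa2. Foxa3 minus the marker mean was −0.28 ± 0.22 (SD, n = 3 Klf5-deleted pools), against −0.18 to 0.10 in the controls. The same quantity was 1.05 ± 0.08 for Foxa1 and 1.00 ± 0.22 for Foxa2, against −0.01 to 0.02 in the controls for both. Foxa2 read below the median gene (8.65) on every array, where a fall like that of the markers may not be seen. Pool 1 had the lowest marker mean, the lowest Foxa3 and the lowest Foxa1, while its Foxa2 was the highest. The 1 marker that did not pass was Cldn6, an embryonic claudin (0.15, SE 0.07, adjusted p = 0.202).

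A list of 14 measured gut genes was read beside them, made up of genes of the secretory lineages, in which Foxa1 and Foxa2 are known to act in mouse gut, and of Hnf4a, a factor of enterocytes. Of the 14, 3 fell and 0 rose, with a median log2 fold change of −0.14, and those that fell were Hnf4a and, among the secretory genes, Atoh1 and Tff3. The log2 fold change was −1.93 (SE 0.13) for Atoh1, which specifies secretory cells, −1.64 (SE 0.12) for Tff3, a trefoil peptide of goblet cells, and −1.97 (SE 0.08) for Hnf4a. Neurod1, an endocrine factor, was at −0.54 (SE 0.15, adjusted p = 0.0517). The goblet mucin gene Muc2 was at −0.01 (SE 0.05) and the hormone gene Gcg at 0.15 (SE 0.15), neither past the test. Both read below the median gene (8.65) on every array. Also short of the limma threshold were Agr2 at −1.35 (SE 0.39, adjusted p = 0.054) and Spdef at −0.25 (SE 0.09, adjusted p = 0.0915). Isl1 went the other way (0.59, SE 0.21, adjusted p = 0.105). The groups stood apart for Spdef and Isl1 and overlapped for Agr2.

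Mesenchymal forkhead genes of the Foxf pair rose, by small amounts. Foxf1, a Hedgehog-dependent regulator of gut mesenchyme and smooth muscle, read 13.14, 13.12 and 13.08 in the Klf5-deleted pools and 12.90, 12.82 and 12.88 in the control pools. The groups stood apart, and the log2 fold change was 0.25 (SE 0.05, limma adjusted p = 0.00976), which is 119% of the control level. A second, separate array row of Foxf1 read 13.01, 12.999 and 13.04 in the Klf5-deleted pools and 12.87, 12.93 and 12.85 in the controls, with a log2 fold change of 0.13 that did not pass when all rows were tested on their own (adjusted p = 0.155). Foxf2, its paralog, read 11.45, 11.41 and 11.55 in the Klf5-deleted pools and 11.26, 11.30 and 11.21 in the control pools. Again all Klf5-deleted values exceeded all controls (log2 fold change 0.21, SE 0.05, adjusted p = 0.0352). Dropping 1 array usually ended the Foxf2 call: the limma adjusted p became 0.0645 and 0.105 (log2 fold changes 0.22 and 0.17) with replicates 1 and 3 of the Klf5-deleted group dropped, and 0.0857, 0.0687 and 0.113 (0.21, 0.24 and 0.19) with control replicates 1, 2 and 3 dropped. Foxf1 passed with any 1 of the 6 arrays dropped. Foxl1, which marks the subepithelial cells that feed Wnt signals to the epithelium, read 8.46, 8.47 and 8.57 in the Klf5-deleted pools and 8.64, 8.51 and 8.53 in the control pools. Here the groups overlapped, and the log2 fold change was −0.06 (95% interval −0.19 to 0.07, adjusted p = 0.557). Foxl1 read below the median gene (8.65) on every array.

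The endodermal and mesenchymal sets were then set against each other. As the mean difference from each gene's control mean, the Foxa set stood at −0.43, −0.15 and −0.28 in Klf5-deleted pools 1 to 3, and the Foxf and Foxl1 set at 0.12, 0.11 and 0.17. The difference between the sets was −0.42 ± 0.15 in the Klf5-deleted pools (SD, n = 3), against a spread of 0.04 (SD, n = 3) in the controls, whose mean is 0 by construction. No p is given for this score, because its members were chosen with results of these arrays known. The median log2 fold change was positive in both sets, 0.13 for Foxa and 0.21 for Foxf and Foxl1, so the sign of the Foxa mean rests on Foxa3.

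**Figure D2:**
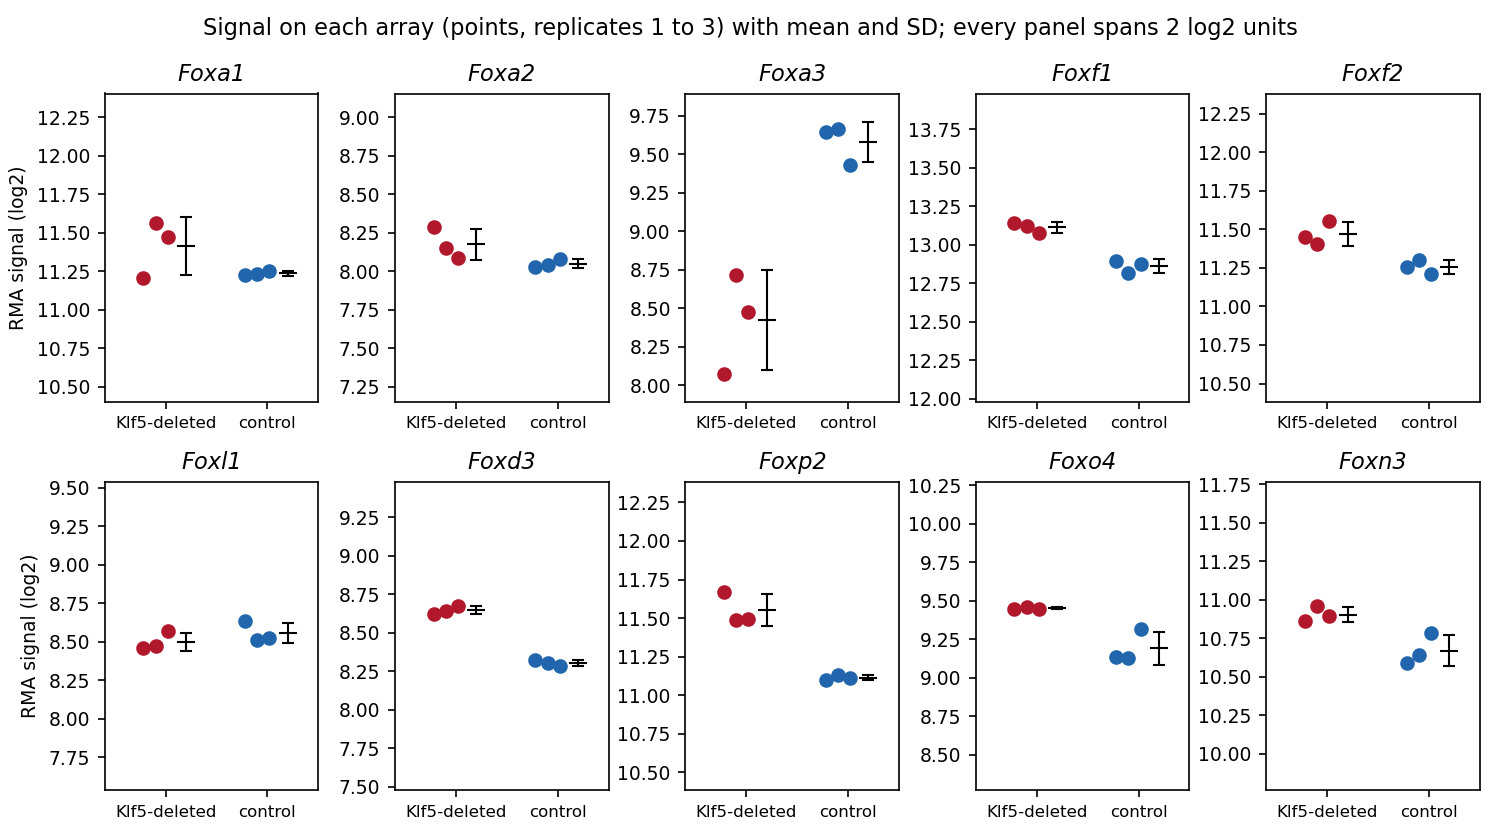
RMA signal (log2) of 10 forkhead genes on each array, Klf5-deleted (red) left of control (blue), with mean and SD (black) beside the 3 points of each group. Each panel spans 2 log2 units, so the fall of Foxa3 can be compared by eye with the smaller rises of Foxf1, Foxf2, Foxd3, Foxp2, Foxo4 and Foxn3 and with the overlap of Foxa1 and Foxl1.

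The window before Foxf2 (chr13:31625566-31625865, plus strand) is shown because Foxf2 rose and is a mesenchymal member whose window was at hand, with capitals as above.
Foxf2: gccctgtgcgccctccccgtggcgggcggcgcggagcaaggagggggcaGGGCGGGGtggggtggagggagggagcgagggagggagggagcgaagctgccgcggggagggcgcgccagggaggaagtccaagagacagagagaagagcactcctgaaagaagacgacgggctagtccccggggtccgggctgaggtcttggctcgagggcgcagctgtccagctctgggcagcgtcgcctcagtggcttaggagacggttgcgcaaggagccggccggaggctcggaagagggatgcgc
It held a GC box 201 bases before the start and neither of the other motifs. On the RefSeq assembly Foxf2 lies between Foxq1 and Foxc1 on chromosome 13. Foxq1, known from mouse stomach for its part in mucin expression, was at 0.10 (SE 0.13, adjusted p = 0.682), and Foxc1, a vessel and mesenchyme factor, at 0.32 (SE 0.10, adjusted p = 0.0721). On chromosome 8, Foxc2 and Foxl1 are next to each other, with log2 fold changes of 0.30 (SE 0.12, adjusted p = 0.148) and −0.06. Foxf1, which rose by 0.25, lies on the same chromosome, parted from Foxc2 by the coding gene Mthfsd.

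Other genes of the layer in which Foxf1 and Foxf2 act were read as well. Of 20 regulators of gut mesenchyme, 10 rose and 0 fell, with a median log2 fold change of 0.31. Hand2 rose by 0.38 (SE 0.05), Meis2 by 0.41 (SE 0.05), Twist2 by 0.44 (SE 0.06) and Zeb1 by 0.29 (SE 0.04), all transcription factors of mesenchyme. Bmp4, a mesenchymal signal that in mouse gut depends on Foxf genes, was at −0.15 (SE 0.07, adjusted p = 0.202). Of 12 structural mesenchymal markers, 2 rose and 0 fell (median 0.09), with Pdgfra at 0.26 (SE 0.05) and Postn at 0.19 (SE 0.05), and of 11 smooth muscle markers 2 rose and 0 fell (median 0.02), with Myocd at 0.35 (SE 0.05) and Synpo2 at 0.22 (SE 0.05). Over all genes, 8.95% rose and 8.58% fell. Of the smooth muscle markers that did not pass, Des was at −0.27 (SE 0.08, adjusted p = 0.052) and Tagln at −0.20 (SE 0.07, adjusted p = 0.0899), both with groups that stood apart. Mesothelial markers were 7 higher and 2 lower of 9 (median 0.52), with Bnc1 at 1.05 (SE 0.17) and Upk1b at 0.92 (SE 0.12) among those that rose, while Msln and Krt19, which is also an epithelial marker, fell. The mean difference from control over the 20 mesenchymal regulators was 0.23 to 0.30 in the Klf5-deleted pools and −0.05 to 0.04 in the controls. Over the mesothelial markers it was 0.24 to 0.45 and −0.13 to 0.15. The part of these shifts in the values of Foxf1 and Foxf2 was not tested.

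Of 15 measured Hedgehog pathway genes, whose signal acts upstream of Foxf1, Foxf2 and Foxl1, 7 rose and 2 fell (median 0.18). The genes that fell were the epithelial ligands: Ihh read 9.05, 9.47 and 9.27 in the Klf5-deleted pools and 10.21, 10.27 and 10.28 in the controls, and Shh 10.76, 10.71 and 10.76 against 10.91, 10.92 and 11.08. The controls carry the altered Shh allele, which is not stated for the Klf5D/D embryos, and its part in the Shh values was not tested. On the receiving side, the target and inhibitor Hhip rose by 0.64 (SE 0.06), the transcription factor genes Gli3 and Gli1 by 0.37 (SE 0.06) and 0.25 (SE 0.05), and Ptch1, a receptor and target, was at 0.10 (SE 0.05, adjusted p = 0.259). The other pathway genes that rose were Boc by 0.47 (SE 0.08), Gas1 by 0.35 (SE 0.08), Smo by 0.20 (SE 0.05) and Gli2 by 0.16 (SE 0.04). Foxf1 and Foxf2 were thus higher, as these genes, Hhip, Gli3 and Gli1 were, in pools where both ligand genes were lower. Foxl1 and Ptch1 did not pass.

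**Figure D3:**
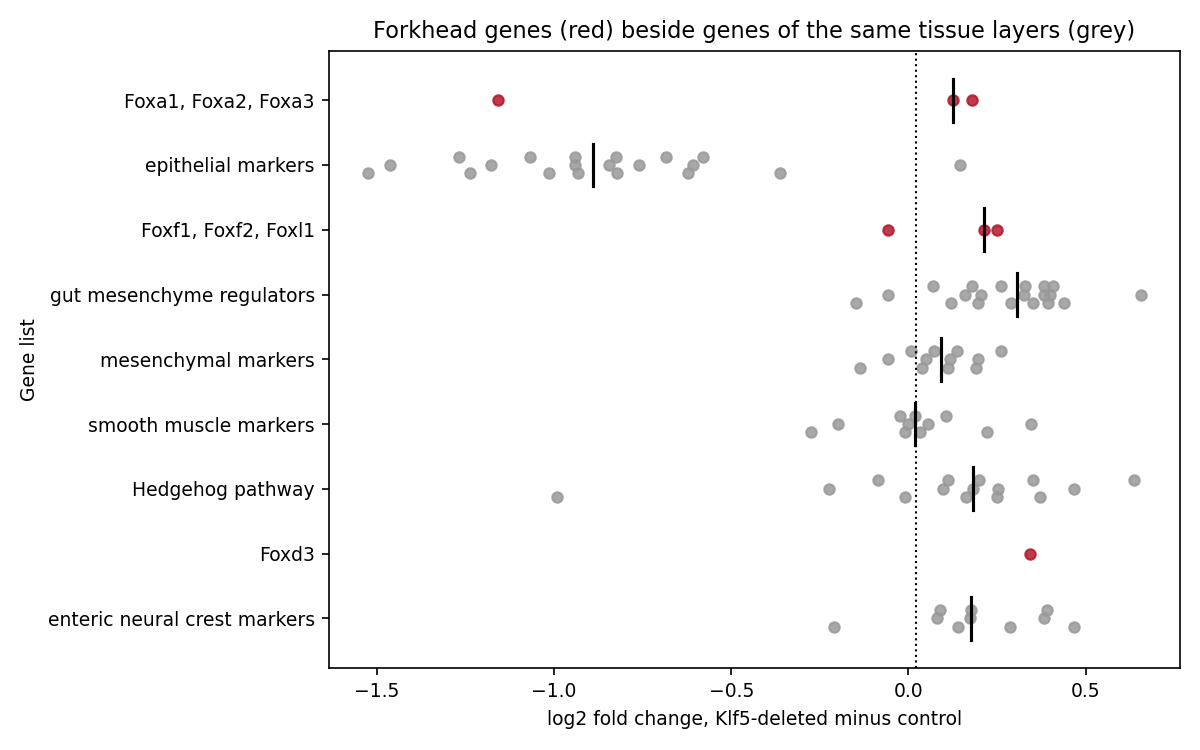
Log2 fold changes (Klf5-deleted minus control) of forkhead genes (red) above the genes of the tissue layer each belongs to (grey), with a black bar at each list's median and a dotted line at the median of all genes (0.02). Foxa3 lies among the epithelial markers, whose median is −0.89, while Foxa1 lies to the right of all 20 and Foxa2 to the right of all but Cldn6. The signal of Foxa2 was below that of the median gene on every array.

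Among the 6 genes that rose, Foxp2 and Foxd3 had the largest log2 fold changes. Foxd3, a factor of neural crest progenitors including those that build the enteric nervous system, read 8.62, 8.64 and 8.67 in the Klf5-deleted pools and 8.33, 8.30 and 8.29 in the control pools. The groups were tight and apart, with a log2 fold change of 0.34 (SE 0.04, limma adjusted p = 0.00181), or 127% of control. Its window (chr4:99656049-99656348, plus strand) is printed as that of the member with the smallest p, and it held none of the 3 motifs.
Foxd3: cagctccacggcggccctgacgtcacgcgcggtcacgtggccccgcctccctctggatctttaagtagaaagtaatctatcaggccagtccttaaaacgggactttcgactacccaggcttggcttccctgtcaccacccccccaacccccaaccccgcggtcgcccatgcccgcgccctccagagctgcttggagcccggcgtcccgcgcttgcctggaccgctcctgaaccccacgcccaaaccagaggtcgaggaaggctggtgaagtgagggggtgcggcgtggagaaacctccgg
Of 10 measured enteric neural crest markers, 3 rose and 0 fell (median 0.18). They were the GDNF receptor gene Gfra1 (0.47, SE 0.05), the crest and glial factor gene Sox10 (0.39, SE 0.07) and Hand2, which is also a mesenchymal gene. The neuronal genes Elavl4 and Tubb3 were at 0.08 (SE 0.08) and 0.14 (SE 0.09), and Ret at 0.29 (SE 0.10, adjusted p = 0.0959). Uchl1, the lowest of the list, was at −0.21 (SE 0.07, limma adjusted p = 0.098), with groups that stood apart. The mean difference from control over this list was 0.13 to 0.30 in the Klf5-deleted pools and −0.04 to 0.04 in the controls, and its part in the Foxd3 value was not tested. Foxp2, a repressor that works with Foxp1 in developing lung and esophagus of the mouse, read 11.67, 11.49 and 11.49 in the Klf5-deleted pools and 11.10, 11.13 and 11.11 in the control pools. Pool 1 was the highest, and the controls differed little among themselves, and the log2 fold change was 0.44 (SE 0.06, adjusted p = 0.00288), or 136% of control. Its partner Foxp1 was at 0.04 (SE 0.06, adjusted p = 0.684) and Foxp3, the factor of regulatory T cells, at 0.02 (SE 0.07). Foxp4, which overlaps with Foxp1 and Foxp2 in mouse lung, read 10.77, 10.69 and 10.71 in the Klf5-deleted pools and 10.81, 10.87 and 10.92 in the control pools, apart from each other but short of the threshold (−0.14, SE 0.05, adjusted p = 0.1). Both calls, of Foxd3 and of Foxp2, were kept without any 1 of the 6 arrays.

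The Foxo genes, which insulin and growth factor signals keep out of the nucleus, differed in sign. Foxo4 read 9.44, 9.46 and 9.45 in the Klf5-deleted pools and 9.13, 9.12 and 9.32 in the control pools (log2 fold change 0.26, SE 0.06, adjusted p = 0.0258). The Klf5-deleted values were nearly equal, and control replicate 3 lay closer to them than the other controls did. Foxo4 is X-linked, and the pools differed in sex. With the male share as covariate its value was 0.15 (adjusted p = 0.694). Foxo3 read 10.05, 10.23 and 10.10 in the Klf5-deleted pools and 10.38, 10.32 and 10.29 in the control pools. All 3 Klf5-deleted values were below the controls, and the log2 fold change of −0.20 (SE 0.06) missed the threshold narrowly (adjusted p = 0.0506), passing without Klf5-deleted replicate 2 (−0.25, adjusted p = 0.0273). Foxo3 was at −0.11 (adjusted p = 0.783) in the fit with the male share. Foxo1 (−0.04, SE 0.04) and Foxo6 (−0.08, SE 0.12) did not pass. Foxo4 no longer passed in limma with any 1 Klf5-deleted array dropped (0.26 each time, adjusted p of 0.0561, 0.0671 and 0.0739 for replicates 1, 2 and 3) or with control replicate 1 or 2 dropped (0.23 both times, adjusted p of 0.0794 and 0.0934). Of 20 genes known as Foxo targets, 2 rose and 2 fell (median 0.02), shares near those of all genes (8.95% and 8.58%) and so no result about the list. The genes that rose were Pik3ip1, an inhibitor of PI3 kinase (0.35, SE 0.06), and the cyclin gene Ccng2 (0.33, SE 0.06), and those that fell were the coactivator gene Cited2 (−0.18, SE 0.05) and Sod2, a mitochondrial antioxidant enzyme (−0.16, SE 0.04).

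Foxn3, a transcriptional repressor linked to the cell cycle checkpoint, read 10.86, 10.96 and 10.89 in the Klf5-deleted pools and 10.59, 10.64 and 10.78 in the control pools (log2 fold change 0.23, SE 0.06, adjusted p = 0.0396). Control replicate 3 came nearest to the Klf5-deleted range. A second row of Foxn3 was at 0.12 (adjusted p = 0.403 when all rows were tested on their own), and with the mean of both rows the gene did not pass (0.18, adjusted p = 0.101). Nor did it pass in limma with any 1 Klf5-deleted array dropped (0.26, 0.21 and 0.24 for replicates 1, 2 and 3, with adjusted p of 0.0575, 0.110 and 0.0966) or with control replicate 1 or 2 dropped (0.19 and 0.22, adjusted p of 0.108 and 0.126). Foxn2, a relative, read 9.33, 9.42 and 9.33 in the Klf5-deleted pools and 9.57, 9.46 and 9.46 in the control pools (−0.14, SE 0.05, adjusted p = 0.128). Its groups stood apart without passing. Foxn4, a factor of retina and spinal cord, was at 0.05 (SE 0.05) and Foxn1, of thymic epithelium, at 0.03 (SE 0.07).

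**Figure D4:**
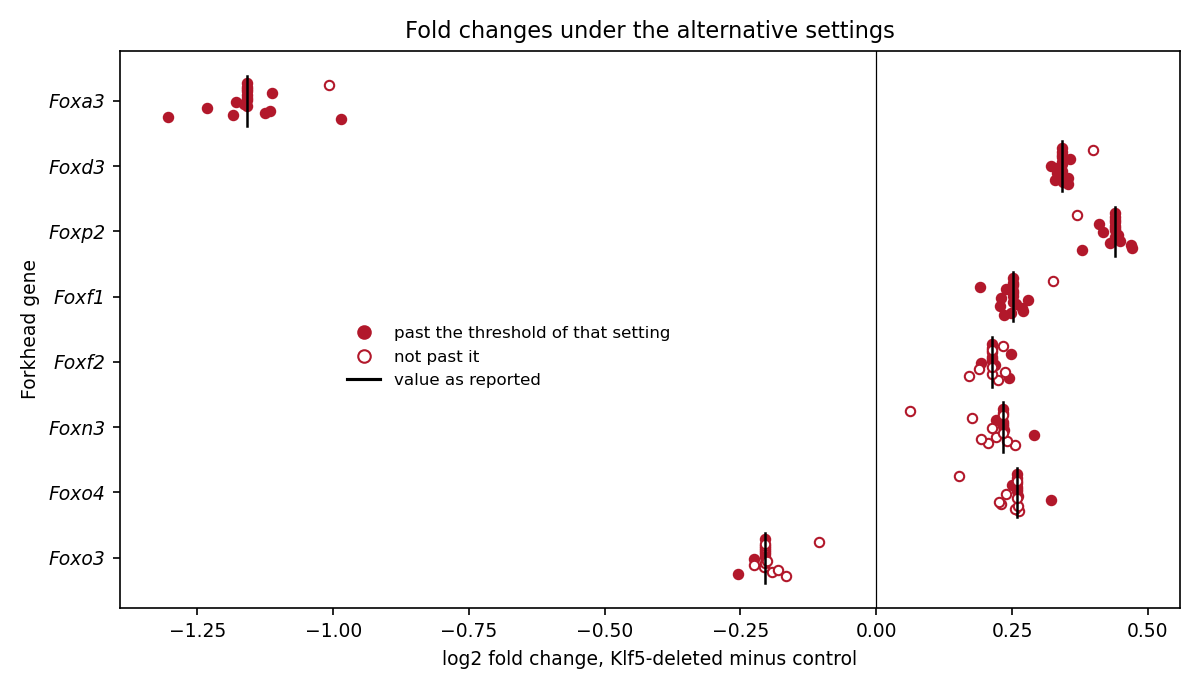
Log2 fold change (Klf5-deleted minus control) of the 7 called forkhead genes and Foxo3 under each alternative setting (filled where the gene passed, open where it did not), with a black line at the value as reported. Foxa3, Foxd3, Foxp2 and Foxf1 each have 1 open point, from the fit with the male share as covariate, while Foxf2, Foxn3 and Foxo4 have many.

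The vascular genes Foxc1 and Foxc2 had higher values in the Klf5-deleted pools and did not pass. Both read below the median gene (8.65) on every array. Foxc1 read 6.84, 6.61 and 6.48 in the Klf5-deleted pools and 6.42, 6.19 and 6.36 in the control pools, with a log2 fold change of 0.32. Without Klf5-deleted replicate 3 it passed (0.40, adjusted p = 0.0484), and without replicate 1 it was 0.22 (adjusted p = 0.130). Foxc2, which lymphatic valves need, read 7.94, 7.43 and 7.53 in the Klf5-deleted pools and 7.34, 7.30 and 7.37 in the control pools, with a log2 fold change of 0.30, which was 0.14 without Klf5-deleted replicate 1 (adjusted p = 0.143). In both genes pool 1 of the Klf5-deleted group was the highest. Of 13 endothelial markers, 0 passed limma's test (3 had an unadjusted p under 0.05, beside 6099 of all 19938 genes), with a median of 0.13. Their mean difference from control was 0.26, −0.05 and 0.09 in Klf5-deleted pools 1 to 3 and −0.04 to 0.06 in the controls. Pool 1 was thus highest for the endothelial markers too, and their part in the Foxc values was not tested.

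Foxm1, which drives genes of mitosis, read 10.76, 10.69 and 10.76 in the Klf5-deleted pools and 10.72, 10.72 and 10.77 in the control pools. The groups overlapped, with a log2 fold change of 0.01 (95% interval −0.10 to 0.11, adjusted p = 0.959). Of 15 measured mitotic genes, 0 passed limma's test (4 had an unadjusted p under 0.05, beside 6099 of all 19938 genes), with a median of 0.04. Cdc25b was at 0.21 (SE 0.06, adjusted p = 0.0665) and Nek2 at −0.14 (SE 0.05, adjusted p = 0.0844). Foxj1, the factor of motile cilia, was at 0.04 (SE 0.06, adjusted p = 0.748) and Foxj3 at −0.03 (SE 0.06). Foxj2 read 10.45, 10.33 and 10.32 in the Klf5-deleted pools and 10.23, 10.30 and 10.23 in the control pools, with a log2 fold change of 0.11 (SE 0.05, adjusted p = 0.197). Of 14 genes of motile cilia, 4 rose and 0 fell (median 0.05): Tekt2 by 0.46 (SE 0.08), Rsph4a by 0.38 (SE 0.06), Ccdc39 by 0.25 (SE 0.06) and Rfx3, a factor that cells with a single cilium also use, by 0.21 (SE 0.05). The shares of all genes were 8.95% higher and 8.58% lower. Tekt2, Rsph4a and Ccdc39 read below the median gene (8.65) on every array, as did Foxj1 itself.

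The remaining members belong to branches known mainly from other organs, such as Foxe1 of the thyroid, Foxe3 of the lens, Foxi1 of the inner ear and kidney and Foxh1 of early embryonic Nodal signalling. The 14 genes of the b, e, h, i, k, q, r and s branches lay between −0.08 and 0.10, with adjusted p of 0.329 or more. Foxk1 and Foxk2, regulators of metabolism and autophagy, were at −0.05 (SE 0.05) and −0.04 (SE 0.05). Foxd1, Foxd2 and Foxd4 were at 0.02 (SE 0.09), 0.15 (SE 0.08) and −0.05 (SE 0.09), and Foxl2, of the ovary, at 0.08 (SE 0.07). Of the 43 members, 25 had a mean signal not above the median gene's, and 1 of these, Foxd3, was called. A gene that is not transcribed in the tissue reads near the lower end of the array, where a change cannot be seen.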

How the data were processed

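Intestinal RNA of mouse embryos was measured on the Affymetrix Mouse Gene 1.0 ST array. The authors deposited log2 signals, 3.51 to 14.3, summarised by RMA (Expression Console 1.1, per the submitters' processing notes). RMA equalises the distributions of arrays, which would hide a shift shared by most genes. Build and annotation are not stated there. Precision is limited by the few arrays. Groups and replicate numbers came from the sample titles.

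Of 35557 rows, 21789 had 1 gene symbol in the platform annotation, 1621 had several and 12147 are not named here. RefSeq (GRCm38.p6) supplied current symbols by gene ID for 21698 rows, and the brightest row was kept for each of 19938 genes, with no filter on level. The 2 groups entered a limma 3.58.1 fit (R 4.3.3, lmFit, eBayes) of the Klf5-deleted minus the control mean. P values were adjusted by Benjamini-Hochberg over all genes, at a threshold of 0.05. SE are limma's moderated ones, and intervals are its 95% intervals. The steps were tested on simulated data.

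The members, the 18 lists (219 genes, 207 measured) and the alternatives were chosen with earlier results of these data known, so lists are described by counts and medians, beside all genes, and have no test. Named from a list were up to 4 genes with the smallest p, a few defining ligands and markers, and some others chosen after their values were seen. Further lists held leukocyte markers (0 rose and 1 fell of 12), red cell markers (1 rose and 0 fell of 5) and sex-linked genes (0 rose and 1 fell of 4). Of 12 markers of stomach, pancreas and liver, 0 passed in limma and 1 had an unadjusted p under 0.05, beside 6099 of all 19938 genes. The labels call the samples pools, and separate litters are not stated, so p values rest on the spread among these pools, which may be technical. Alternatives are given with their effects under the closing heading.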

Additional observations from a re-analysis of the deposited data

How the results depend on the processing

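The alternatives left out each array, used the replicate number as a block, normalized or centred the arrays again, left out the lowest 25% or 50% of genes, changed the variance model or array weights, averaged the rows of a gene, tested every row on its own, kept the annotation's symbols, added the male share as covariate, or used a threshold of 0.1. The number of forkhead genes that rose, 6, was 3 with the replicate block, 3 with every row tested on its own and 0 with the male share, and 3 to 5 on leaving out an array. The number that fell, 1, was 2 with centred arrays, with the lowest 25% left out, with the intensity trend and at the threshold of 0.1, where Foxo3 joined Foxa3 each time, 3 with the lowest 50% left out and with array weights, where Foxp4 passed as well, 0 with the male share, and 1 to 2 on leaving out an array. Foxa3, Foxd3, Foxp2 and Foxf1 kept their calls in every alternative that tested them except the male share. The lowest 50% of genes left out excluded Foxd3. The Foxa set minus the Foxf and Foxl1 set stayed between −0.50 and −0.35 in the 16 alternatives that gave it, and leaving out the lowest 50% of genes gave no value, since members of both sets were excluded. With the male share, Foxl1 was at 0.1489 and Foxn2 at 0.0278, neither past the test, against −0.06 and −0.14, and the cause was not tested. Centring on the median called 1216 genes higher and 1767 lower, against 1785 and 1711. With the replicate block 900 genes were higher and 1108 lower, and no pairing of same-numbered pools is known from the design. Deviations from the group means correlated at −0.145, −0.274 and −0.0315 over genes in same-numbered pools. In pools of unlike number the correlations ran from −0.0566 to 0.216. Deviations in a group of 3 sum to 0, so these values cannot decide a pairing. Without control replicate 2, 868 were higher and 1132 lower.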
